A study of Rattus norvegicus with 7 samples.

Results

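This comparison sets 4 arrays of rat kidney cells given an siRNA against Adamts16 beside 3 arrays of the same cells given a scrambled siRNA, and asks which genes outside mitosis moved alike with both siRNAs. The cells are NRK-52E, an established epithelial line from rat kidney, grown in 10% serum, seeded at 20% confluence, transfected by lipofection with 100 pmol siRNA per ml of medium and harvested 48 h later. The groups are siRNA Adamts16-3488 (2 arrays), siRNA Adamts16-2600 (2 arrays) and the scrambled control (3 arrays), each array from an independent culture, so the comparison uses 7 of 7 arrays of the series. All groups went through transfection, and untransfected cells are not among these samples. Each value is the deposited signal of a probe set, in arbitrary units, and changes are differences of mean log2 signal, siRNA arrays minus control arrays.

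Of 31099 probe sets, 57 are controls of the array and 18625 of the others, the upper 60% by mean signal, were tested. A probe set counts as on one side when all 4 siRNA arrays lie above, or all lie below, the 3 control arrays. It counts as of like size when the mean changes with the 2 siRNAs have the same sign and the smaller is at least 0.5 of the larger. On one side lay 3294 probe sets (17.7%), of which 1241 (6.66%) were higher and 2053 (11%) lower with the siRNAs. On one side and of like size were 2330 (12.5%), namely 821 higher (4.41%) and 1509 lower (8.1%). These 2330 stand for 1596 named genes, 60 of them in a list of mitotic genes that is set aside here. The other 1536 comprise 653 higher and 895 lower, with 12 genes counted in both directions through different probe sets, among them Fst, Rab1b and Son. The selection uses the contrast itself, so these counts describe the arrays and test nothing. Just inside the size limit lay Tsc2, a growth regulator gene, with -0.13 for siRNA 3488 and -0.27 for siRNA 2600, and just outside it Prkcsh, a glucosidase subunit gene, with 0.41 and 0.20.

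An siRNA is a short RNA duplex of which one strand, the guide, directs the cell's Argonaute proteins to transcripts that pair with it. Pairing along the whole guide leads to cleavage of the target, and pairing of the guide's seed alone, near its 5′ end, can lower many other transcripts. For this reason knockdown studies commonly use siRNAs of different sequence against one gene. Adamts16 encodes a secreted metalloprotease of a family that cuts proteins of the extracellular matrix, and the series studies it in connection with inherited hypertension.

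The guide strands are shown because the comparison rests on the siRNAs having different seeds. They are written 5′ to 3′ as DNA without the 3′ overhang, with the seed, bases 2 to 8, in capitals.
siRNA 3488: tTTCCGGAgacgtacttct
siRNA 2600: tTGCGCACagaaatatagg
scrambled control: aTTACCGAgcacattggagg
The 3 seeds are different strings.

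All 7 arrays were scaled by the authors to a similar trimmed mean (500.1 to 500.2), and their median signals ran from 126.1 to 139.6. The hybridisation spikes, RNA added in fixed amounts, were higher than on the control arrays by a median log2 of 0.34 and 0.71 on the siRNA 3488 arrays and differed by -0.08 and 0.13 on the siRNA 2600 arrays. The 3′ over 5′ signal ratio of beta-actin, a measure of RNA integrity, was 1.96, 1.94, 1.83 and 1.81 on the siRNA arrays against 1.74, 1.76 and 1.79 on the control arrays. The same ratio of GAPDH overlapped between the groups. That of hexokinase was 4.71, 3.73, 3.54 and 2.28 on the siRNA arrays against 2.54, 2.39 and 2.98 on the control arrays. Every siRNA array except siRNA 2600 replicate 2 thus lay above the controls. The part of these differences in the results was not tested. Of 39 kidney tubule markers on the array 10 reached the tested signal level, with Krt8, Tjp1 and Atp1b1 bright, while Cdh1, Epcam and Cdh16 lay below it on every array. Of 14 fibroblast markers 7 reached it. The summed signal of all 14 was 61660, 68130, 50000.0 and 54720.0 on the siRNA arrays, with the control arrays at 47600.0 to 51260.0. The array of siRNA 2600 replicate 1 thus lay within the control range. Col3a1 and Mfap5 make up most of this sum. Summed tubule markers overlapped, at 23630.0 to 26010.0 and 23500.0 to 25320.0. Those of leukocyte markers (6634 to 7007 and 6385 to 6806) and endothelial markers (543.2 to 580.7 and 546.3 to 662.9) overlapped as well. Cd14, at 5688 to 6258 on every array, makes up most of the leukocyte sum, while the pan-leukocyte gene Ptprc was at most 10.4 and the endothelial Pecam1 at most 24.9.

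A fall of the targeted transcript could not be read. The probe set of Adamts16 gave 12.1 and 40.4 for siRNA 3488, 21.4 and 2.42 for siRNA 2600, against 8.68, 7.18 and 18.9 for the scrambled siRNA, so the groups overlapped. Its mean log2 signal of 3.55 lay below the 6.09 needed to be tested, and an exact two-sided permutation test over the arrays gave p = 0.857, where 35 splits allow no p below 0.0571. The log2 change of 0.25 had a 95% interval of -1.78 to 2.29.

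Of the 18625 probe sets, 27 (0.145%) passed limma's test of both siRNAs against the control (adjusted p below 0.05). Of these 19 rose and 8 fell, and all 27 were on one side and of like size. The test counts a difference between the siRNAs as spread, so it favours probe sets that moved alike with both. Mitotic genes account for 12 of the 27, and the remaining 15 are 10 named genes and 5 probe sets without a gene name in the annotation used. The call count moved strongly with single arrays. It was 1316 without siRNA 2600 replicate 1, 12 without siRNA 2600 replicate 2, 1 without siRNA 3488 replicate 2, and 0 when siRNA 3488 replicate 1 or a control array was left out (2016 to 2778 of 18625 at an unadjusted limma p under 0.05). The like-size count went from 2330 to 3928 without siRNA 2600 replicate 1 and lay between 2555 and 3095 without any other array. In a fit with 3 groups, which takes the difference between the siRNAs out of the spread, 1378 probe sets (7.4%) passed for the mean of the siRNA effects. The same fit found 1119 (6.01%) that differed between siRNA 3488 and siRNA 2600.

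**Figure D1:**
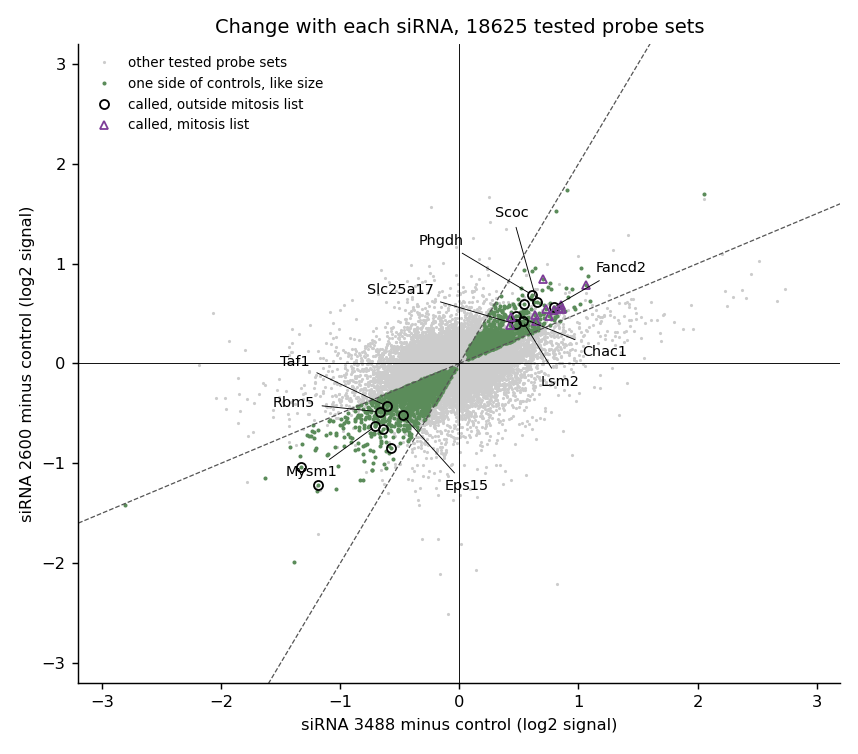
Change with siRNA 2600 (vertical, log2 signal minus control mean) against change with siRNA 3488 (horizontal) for the 18625 tested probe sets; green points lie on one side of the controls with like size, between the dashed lines of ratio 0.5, and open circles and triangles mark the 27 called probe sets outside and inside the mitosis list. The called probe sets lie close to the diagonal, and each has the same direction with both siRNAs. The test keeps differences between the siRNAs in its spread, so it favours probe sets of this kind.

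Among the 10 named genes, 6 rose with the siRNAs. They serve DNA crosslink repair (Fancd2), serine synthesis (Phgdh), the Golgi (Scoc), RNA splicing (Lsm2), glutathione breakdown (Chac1) and the peroxisome (Slc25a17). The other 4 fell, and they serve histone modification (Mysm1), splicing regulation (Rbm5), transcription initiation (Taf1) and endocytosis (Eps15). The rises were 1.35-fold to 1.60-fold, and the falls left 0.63 to 0.71 of the control level. These changes are small, and in each gene the groups did not overlap.

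Scoc, whose product is a coiled-coil protein of the Golgi that also acts in autophagy, read 2932 and 3127 for siRNA 3488, 2903 and 3000.0 for siRNA 2600, against 1770.4, 1932 and 2094 for the scrambled siRNA. The siRNA arrays lay close together, and all were well above the highest control. It rose by 0.63 ± 0.07 on the log2 scale (SE; limma adjusted p = 0.0287), with 0.65 and 0.61 for the 2 siRNAs. A second Scoc probe set gave 1074, 1355, 868 and 1222 on the siRNA arrays against 817, 761 and 859.7 on the control arrays, which do not overlap either (0.46, not passing). Fancd2, the monoubiquitinated hub of the Fanconi anaemia pathway of crosslink repair, read 862 and 783 for siRNA 3488, 703 and 701 for siRNA 2600, against 512, 423 and 496 for the scrambled siRNA. Its siRNA 3488 arrays were the highest and the siRNA 2600 arrays stood between them and the controls. The mean signal was 477 ± 47.6 (SD, n = 3) in the control and 762 ± 76.7 (SD, n = 4) with the siRNAs, and the gene rose by 0.68 ± 0.11 on the log2 scale (limma adjusted p = 0.0478). The interval of the difference between the siRNAs, -0.03 to 0.48, includes 0.

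Phgdh, the first enzyme of serine synthesis from a glycolytic intermediate, read 1182, 1125 and 968 on the control arrays, then 1562 and 1762 for siRNA 3488 and 1848 and 1665 for siRNA 2600. The highest control array lay below the lowest siRNA array, and the siRNAs overlapped each other. It rose by 0.65 ± 0.09 (limma adjusted p = 0.0471). Chac1, which degrades glutathione and is a known target of the stress factor ATF4, read 1076 and 1072 for siRNA 3488, 1011 and 1141 for siRNA 2600, against 736, 788 and 791 for the scrambled siRNA. The mean changes with the siRNAs were 0.48 and 0.48, and the rise over all 4 arrays was 0.48 ± 0.07 (limma adjusted p = 0.0472). Lsm2 encodes a subunit of the ring that binds U6 RNA in the spliceosome. It read 1131, 1106, 1049 and 1029 on the siRNA arrays against 776, 738 and 810.0 on the control arrays, without overlap, and rose by 0.48 ± 0.07 (limma adjusted p = 0.0472). Slc25a17, a carrier of cofactors across the peroxisomal membrane, read 3477, 3672, 3237 and 3505 on the siRNA arrays against 2649.5, 2491 and 2561 on the control arrays and rose by 0.43 ± 0.07 (limma adjusted p = 0.0472).

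Of the genes that fell, Mysm1, which removes ubiquitin from histone H2A, read 500.3 and 467 for siRNA 3488, 570.2 and 455 for siRNA 2600, against 775, 806 and 787 for the scrambled siRNA. Its controls lay close together and all 4 siRNA arrays were far below them. The fall was 0.67 ± 0.10 on the log2 scale, from 789.5 ± 15.6 (SD, n = 3) to 498 ± 51.6 (n = 4; limma adjusted p = 0.0472), while another Mysm1 probe set was at 0.03. Rbm5, an RNA-binding regulator of alternative splicing and apoptosis, read 1676, 1564 and 1605 on the control arrays, then 1026 and 1002 for siRNA 3488 and 1233 and 1079 for siRNA 2600. It fell by 0.58 ± 0.08 (limma adjusted p = 0.0472), with -0.67 for siRNA 3488 and -0.49 for siRNA 2600. The groups did not overlap at a second Rbm5 probe set (-0.64), but its brightest was at -0.08. Taf1, the scaffold subunit of the general transcription factor TFIID, read 778, 737, 861 and 849 on the siRNA arrays against 1187, 1136 and 1134 on the control arrays, again without overlap. It fell by 0.52 ± 0.08 (limma adjusted p = 0.0472), and its dimmer probe set overlapped (-0.32). Eps15 is an adaptor of clathrin-coated pits. It read 1169, 1263, 1196 and 1162 on the siRNA arrays against 1580.5, 1663 and 1841 on the control arrays and fell by 0.50 ± 0.07 (limma adjusted p = 0.0472). Another Eps15 probe set gave 430.4, 409.7, 409 and 407 on the siRNA arrays against 616, 536 and 539 on the control arrays, lower on every siRNA array by a mean of -0.44 without passing, and the brightest one was at -0.06.

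For all 10 genes the 95% interval of the difference between the siRNAs includes 0, and the widest of them, that of Mysm1, runs from -0.34 to 0.19. The test that called these genes favours a small difference between the siRNAs. The 2 largest falls among the called probe sets belong to probe sets without a gene name. Probe set 1390085_at read 144, 172, 156 and 151 on the siRNA arrays against 315, 444 and 329.9 on the control arrays and fell by 1.21 ± 0.15, and 1398594_at read 168, 161, 166 and 246 on the siRNA arrays against 367, 455 and 427 on the control arrays and fell by 1.19 ± 0.17 (limma adjusted p = 0.0372 and 0.0472). They are the only called probe sets outside mitosis with changes above 2-fold.

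**Figure D2:**
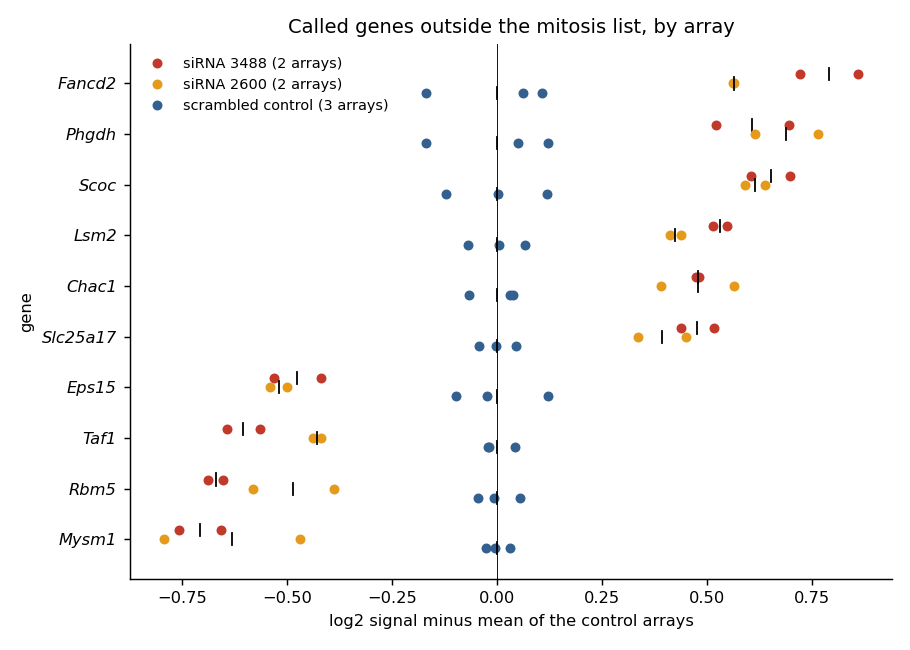
Log2 signal minus the mean of the 3 control arrays (horizontal) for the 10 called named genes outside the mitosis list, 1 point per array and a black bar at each group mean. Every siRNA point lies on one side of the 3 control points, and the points of siRNA 3488 and siRNA 2600 lie near each other. The test that called these genes favours both features.

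A second view ranks like-size genes by the gap, the log2 distance between the siRNA array and the control array nearest to each other. It picks genes that separate cleanly whether or not they pass the test, so the gaps are a description. Among the 12 higher genes outside mitosis with the widest gaps, 4 are called genes given above, and the other 8 did not pass. Rgs5, a brake on G protein signalling best known from the muscle cells and pericytes of vessels, had the widest gap (0.64). It read 178 and 174 for siRNA 3488, 297 and 282 for siRNA 2600, against 85.8, 106 and 112 for the scrambled siRNA, so the siRNA 2600 arrays were the highest, and the change was 1.17 ± 0.23 (limma adjusted p = 0.0787). Cxcl13, a chemokine that attracts B cells, read 1175, 1088, 818 and 867 on the siRNA arrays against 618, 578 and 542 on the control arrays, a change of 0.75 ± 0.13 (adjusted p = 0.0684). The change with siRNA 3488 exceeded that with siRNA 2600 by 0.43 (limma adjusted p = 0.036), so its size is not the same with both. Dctpp1, which clears unusual deoxycytidine nucleotides, read 896, 892, 658 and 771 on the siRNA arrays against 503, 481 and 481 on the control arrays. It came closest to passing (0.71 ± 0.11, adjusted p = 0.051).

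The replication factor gene Mcm10 was at 0.63, and Igf2bp2, an RNA-binding protein gene, at 0.57. Asph, which hydroxylates aspartate in secreted proteins, was at 0.59. A second probe set of Asph (-0.12) and of Igf2bp2 (-0.43) had the opposite sign, with siRNA and control arrays overlapping. Slc14a2, the urea transporter of the renal medulla, was at 0.99 and the secreted matrix protein gene Egfl6 at 0.77. Both lie near the lower limit of tested signal, with Slc14a2 at 77.6, 137, 87.2 and 111 on the siRNA arrays against 57.3, 46.3 and 49.3 on the control arrays. Adjusted p of these 8 genes ran from 0.051 to 0.15.

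Among the 12 lower genes with the widest gaps, Mysm1 is the called one, and 11 did not pass. Mef2d, a transcription factor of muscle and neurons, had the widest gap (0.83) at 27.8 and 34.4 for siRNA 3488, 92.4 and 70.5 for siRNA 2600, against 203, 164 and 302 for the scrambled siRNA. The change was -2.11 ± 0.41 (limma adjusted p = 0.0787). It was larger with siRNA 3488 than with siRNA 2600 (difference -1.39, limma adjusted p = 0.0415), and it was not of like size under every scaling. The brighter Mef2d probe set was at 0.06. Hycc2, whose product belongs to a lipid kinase complex at the plasma membrane, read 61.5, 53.9, 44.3 and 55.5 on the siRNA arrays against 105, 124 and 128 on the control arrays (-1.15). Its other probe sets were at -0.10 and -0.03.

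Kitlg, the ligand of the receptor Kit, read 142, 133, 110.3 and 167 on the siRNA arrays against 246, 221 and 257 on the control arrays at 1 probe set, 566, 556, 495 and 495 on the siRNA arrays against 615, 611 and 691 on the control arrays at the brightest and 120.1, 143, 82.0 and 109 on the siRNA arrays against 168, 168 and 175 on the control arrays at the last. All 3 lay without overlap below the controls, at -0.82, -0.28 and -0.61, and none passed. Ngfr, the p75 neurotrophin receptor gene, was at -0.75, and Gas7, a cytoskeletal regulator gene, at -0.90. Ifnar1, a chain of the receptor for type I interferons, read 248, 271, 284 and 308 on the siRNA arrays against 421, 430.1 and 411 on the control arrays (-0.60). Its other 5 tested probe sets lay between -0.16 and 0.18, and 1 of them was also lower on every siRNA array. Baz2b, a bromodomain gene, read 328, 293, 314 and 319.6 on the siRNA arrays against 440.0, 447 and 442 on the control arrays (-0.50). Tnks2, a tankyrase that modifies proteins with poly(ADP-ribose), was at -0.63, the cytoskeletal crosslinker gene Specc1l at -0.81, Appbp2, which binds the tail of the amyloid precursor, at -0.61 and Ankrd13c at -0.80. Adjusted p of the 11 genes lay between 0.0787 and 0.148. For 9 of the 11, other probe sets of the gene were tested too, and of those 9 only Appbp2, Ifnar1 and Kitlg had another one lower on every siRNA array.

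**Figure D3:**
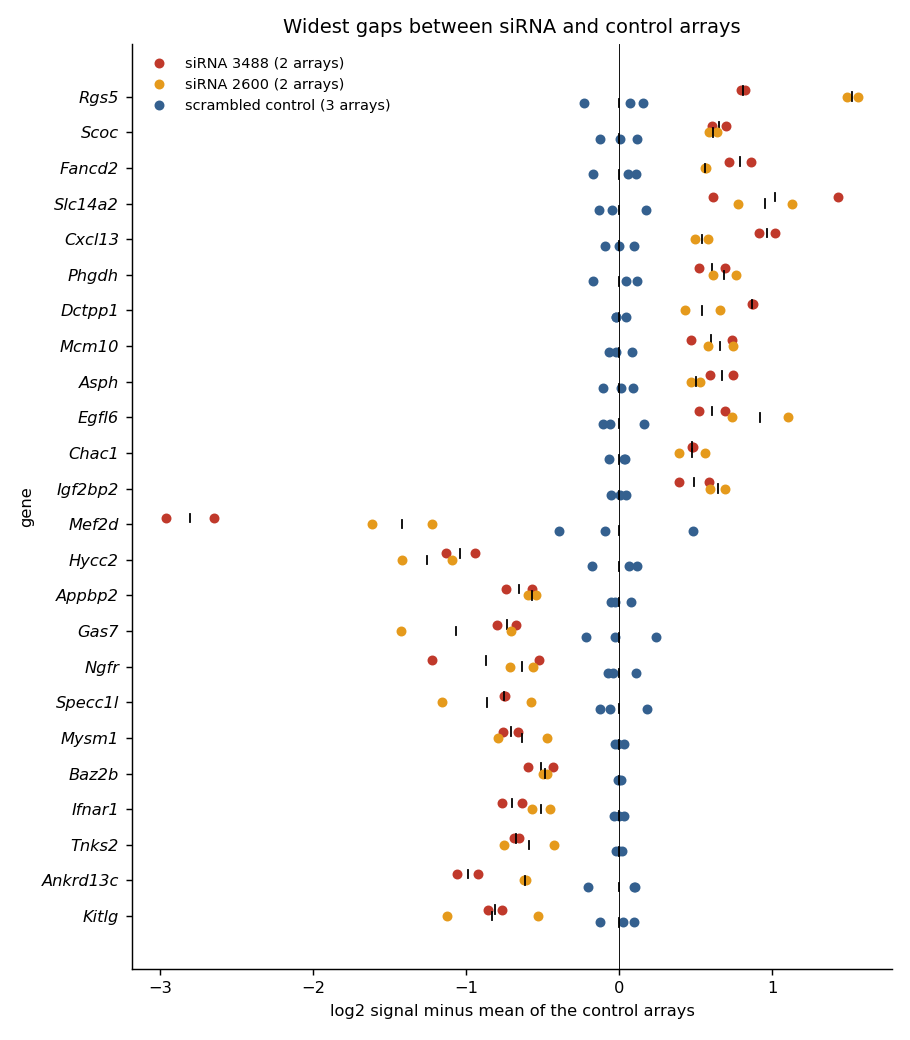
Log2 signal minus the mean of the 3 control arrays (horizontal) for the 12 higher and 12 lower genes with the widest gaps, 1 point per array and a black bar at each group mean. All siRNA points lie outside the range of the control points, and Mef2d and Rgs5 show the siRNAs furthest apart from each other.

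Gene lists were then read with the brightest probe set of each of 10019 genes. Among these 20 genes (0.2%) were called. On one side lay 956 higher (9.54%) and 876 lower (8.74%), and 640 (6.39%) and 634 (6.33%) of them were of like size. Because the split between higher and lower depends on the scaling, a stricter count asks for one side and like size under the deposited scaling, quantile normalization and median centring together. It was met by 521 genes higher (5.2%) and 156 lower (1.56%), and by 1215 of all probe sets tested (6.52%). Leaving out 1 array makes the rule of one side easier to meet. Like-size counts over all genes then ran from 694 to 982 higher and from 658 to 1095 lower. The largest, 982 and 1095, came without siRNA 2600 replicate 1. List counts with 1 array left out are to be read beside this rise. A list is described against the shares of all genes.

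Genes of DNA replication and nucleotide supply were higher more often than genes at large. Of 36 tested, 18 (50%) were higher with like size, 0 lower, and the same 18 under all 3 scalings. The count lay between 14 and 21 when any 1 array was left out. The median log2 change over the list was 0.29, against -0.01 over all genes, and no member passed the test on its own. Mcm10, which recruits polymerase to origins, read 451, 375, 404 and 454 on the siRNA arrays against 259, 267 and 287 on the control arrays. Rrm1, the large subunit of ribonucleotide reductase that makes deoxynucleotides, read 1024, 929 and 939 on the control arrays, then 1366 and 1429 for siRNA 3488 and 1566 and 1246 for siRNA 2600. It had the same change with each siRNA, 0.54 and 0.54, and an adjusted p of 0.055 in limma. Rfc4, of the clamp loader, was at 0.44 and Pcna, the sliding clamp, at 0.48, with signals of 7275, 7920.1, 5724 and 6568 on the siRNA arrays against 4688, 4827 and 5164 on the control arrays. Cdt1, which licenses origins, was at 0.28. In all of these the siRNA arrays stood above the controls without overlap.

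Of 22 DNA repair genes tested, 8 were higher on one side and 14 overlapped; 7 (31.8%) were higher with like size and 0 lower, also under all 3 scalings. The list's median was 0.24, and leaving out any 1 array gave 5 to 8. Fancd2 rose, as given above. The checkpoint kinase gene Atr read 141, 167, 174 and 155 on the siRNA arrays against 104, 107 and 115 on the control arrays (0.55). The recombination gene Rad54l was at 0.34, the helicase gene Blm at 0.27 and the exonuclease gene Exo1 at 0.50, with adjusted p between 0.148 and 0.229. The mitosis list, for scale, had 56 of 120 higher with like size, 12 of them called.

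Many replication and repair genes share a promoter feature. It is common among the tested members of both lists taken whole, whatever their change. Its part in the changes was not tested. In windows from 250 bases before to 50 after the transcription start (RefSeq, assembly GRCr8), a match on either strand to an E2F-type motif, TTTGGCGC, TTTGCCGC, TTTCGCGC or TTTCCCGC, stood in 15 of 33 tested replication genes with a window (45.5%). Among the like-size higher replication genes it stood in 9 of 17 (52.9%), and in 8 of 19 tested repair genes (42.1%). The share was 4.3% of the 8424 tested genes with a window and 2.25% of all 27457 promoters in the table. Among the like-size higher repair genes it stood in 1 of 5, Fancd2. Among like-size genes outside mitosis it stood in 7.27% of 509 higher and 3.85% of 546 lower ones. The promoters of Fancd2 (chr4:148234458-148234757, plus strand) and Cdt1 (chr19:67528999-67529298, plus strand) are shown as members with the motif, in capitals; a match on the minus strand appears as its reverse complement.
Fancd2: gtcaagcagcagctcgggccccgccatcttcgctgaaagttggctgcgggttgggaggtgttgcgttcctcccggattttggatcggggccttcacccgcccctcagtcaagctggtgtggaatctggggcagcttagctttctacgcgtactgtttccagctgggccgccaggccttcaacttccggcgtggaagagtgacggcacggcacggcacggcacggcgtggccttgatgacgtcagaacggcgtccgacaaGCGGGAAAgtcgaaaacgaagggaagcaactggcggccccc
Cdt1: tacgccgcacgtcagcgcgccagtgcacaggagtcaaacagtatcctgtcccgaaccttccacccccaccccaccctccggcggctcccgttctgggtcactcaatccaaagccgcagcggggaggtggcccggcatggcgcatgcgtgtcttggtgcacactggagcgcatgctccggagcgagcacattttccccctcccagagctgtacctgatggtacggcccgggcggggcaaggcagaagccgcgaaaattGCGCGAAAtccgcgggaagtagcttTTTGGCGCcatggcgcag
Fancd2 holds 1 match and Cdt1 2, all of them downstream of the annotated start and within 50 bases of it. Mcm10, Rrm1, Pcna and Rfc4 hold no match in their windows.

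Serine and amino acid stress genes were partly higher. Of 20 genes of serine, glycine, asparagine and one-carbon synthesis, 3 (15%) were higher with like size and 0 lower, also under all 3 scalings. Over all genes 6.39% were higher with like size. The list's higher count ran from 2 to 4 with 1 array left out. Its median was 0.12, with 0.15 for siRNA 3488 and 0.05 for siRNA 2600. Phgdh rose. Asns, which makes asparagine, read 744, 764, 677 and 586 on the siRNA arrays against 499, 537 and 434 on the control arrays (0.50, limma adjusted p = 0.103), and Aldh18a1, of proline synthesis, was at 0.20. Of 28 ATF4 target and amino acid stress genes, 6 (21.4%) were higher and 1 lower, and 5 and 1 under all 3 scalings. The higher count ran from 5 to 8 with 1 array left out. The median of this list was 0.04 with siRNA 3488 and 0.16 with siRNA 2600. Neither list as a whole was thus of like size with both siRNAs. Chac1 rose. Eif4ebp1, an inhibitor of translation initiation, read 2743, 2722, 2689.8 and 2742 on the siRNA arrays against 2114, 2257 and 2259.7 on the control arrays (0.30, adjusted p = 0.0787). The glycyl-tRNA synthetase gene Gars1 was at 0.27, with a dimmer probe set overlapping (0.16). Xpot, the tRNA export receptor gene, was at -0.28. The amino acid transporter gene Slc38a2 was at 0.17 as deposited and at -0.01 after quantile normalization. The amino acid response motif TGATGNAA, on either strand, stood in 7 of 23 of the tested list's promoters (30.4%), against 1.93% of tested genes and 3.82% of all promoters. It stood in 1 of 4 like-size higher genes of the list that have a promoter sequence, Chac1, and in 1.38% of like-size higher and 1.47% of like-size lower genes outside mitosis. Chac1 (chr3:126795881-126796180, plus strand) holds 1 match, on the minus strand, so the capitals give its reverse complement.
Chac1: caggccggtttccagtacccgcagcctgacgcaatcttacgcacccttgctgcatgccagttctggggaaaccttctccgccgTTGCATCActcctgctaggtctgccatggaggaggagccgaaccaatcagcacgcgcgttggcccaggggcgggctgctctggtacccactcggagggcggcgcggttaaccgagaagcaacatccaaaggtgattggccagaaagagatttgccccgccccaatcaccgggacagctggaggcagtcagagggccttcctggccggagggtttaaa
The match lies 167 bases before the annotated start. Phgdh and Asns hold no match in their windows.

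In the secretory pathway, 6 of 37 genes of chaperones, translocation and glycosylation (16.2%) were higher with like size and 0 lower. Under all 3 scalings 5 of them were. With 1 array left out 4 to 8 were higher and 0 to 2 lower. The list's median of 0.12 was 0.05 after quantile normalization and 0.21 after median centring. The 5 with the widest gaps are given here. Ssr2 and Ssr4, of the translocon-associated complex, were at 0.33 and 0.37. Rpn2, Dad1 and Stt3b, of the oligosaccharyltransferase, were at 0.29, 0.19 and 0.12. A dimmer Stt3b probe set went the other way, at 695, 807, 900.4 and 812 on the siRNA arrays against 952, 933 and 913 on the control arrays (-0.22). Ssr2 read 8118, 9482, 7969 and 8088 on the siRNA arrays against 6518, 6885 and 6569 on the control arrays. None passed, with adjusted p between 0.103 and 0.318.

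**Figure D4:**
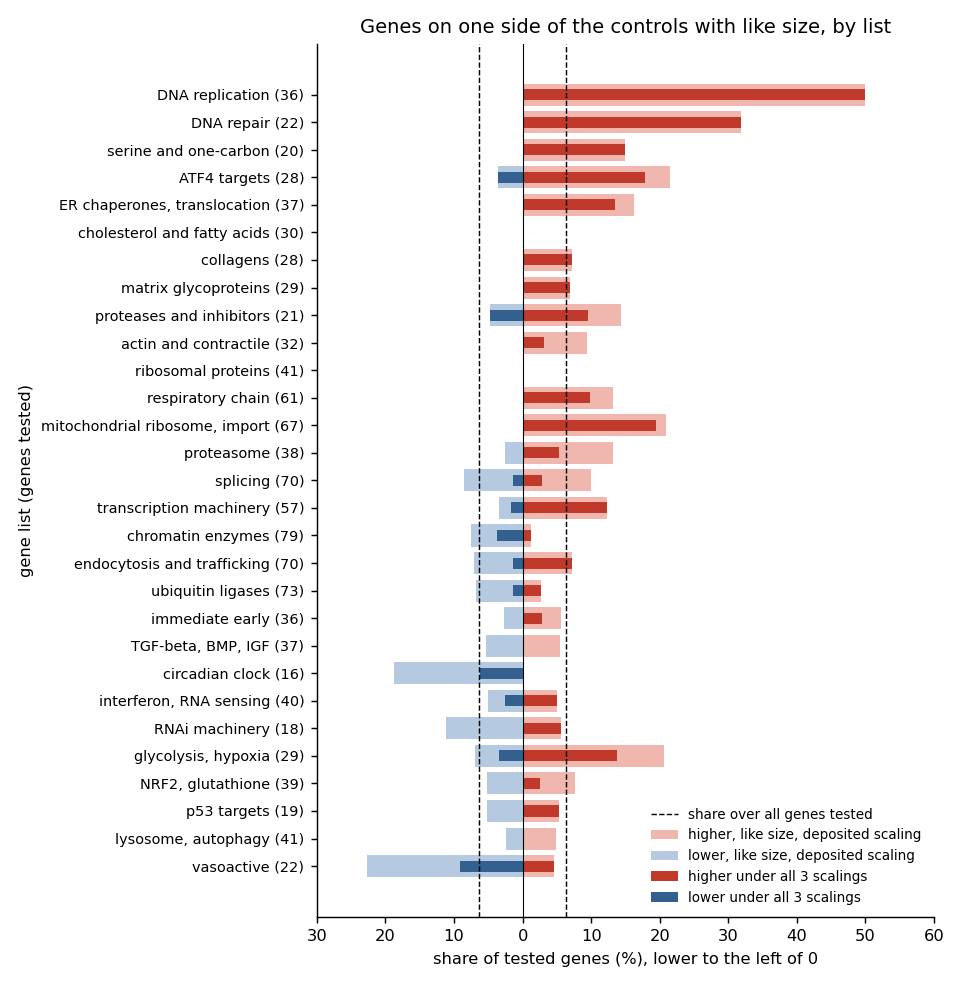
Share of tested genes (percent) on one side of the controls with like size in each list other than mitosis, higher to the right and lower to the left of 0; pale bars use the deposited scaling, dark bars ask for all 3 scalings, and dashed lines mark the shares over all 10019 genes, 6.39% and 6.33%. Of the lists drawn, DNA replication (50%) and DNA repair (31.8%) reach furthest to the right, and most lower bars shrink when all 3 scalings are asked for.

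Genes of the mitochondrion mostly lay above the control mean, 59 of 67 for its ribosome and protein import and 57 of 61 for the respiratory chain, against 4790 of all 10019 genes. These lists are brighter, with a median log2 signal of 10.5 and 12.1 against 9.41 over all genes. In the brightest of 10 equal bins of tested probe sets the median change was 0.10. The part of brightness in these counts was not tested. The respiratory median of 0.21 was 0.09 after quantile normalization and 0.30 after median centring, and that of the ribosome and import list was 0.12, 0.13 and 0.21. Of the 67, 14 (20.9%) were higher with like size and 0 lower, 13 under all 3 scalings, and 14 to 20 with any 1 array left out. Mrpl13, a mitochondrial ribosomal protein gene, read 6629, 7173, 6411 and 6316 on the siRNA arrays against 5436, 5701 and 5478 on the control arrays (0.26). The import genes Tomm7, Timm13 and Timm8b were at 0.22, 0.27 and 0.29 and the mitochondrial chaperonin gene Hspe1 at 0.30. Of 61 respiratory chain genes, 27 (44.3%) were higher on one side, against 9.54% of all genes. Of like size were 8 (13.1%, against 6.39%), 6 under all 3 scalings. The median change was 0.31 with siRNA 3488 and 0.11 with siRNA 2600. The count of 8 was 18 without siRNA 2600 replicate 1, 15 without siRNA 3488 replicate 2, 13 without control replicate 2 and 4 without siRNA 3488 replicate 1. The like-size members named are subunits of complex I. Ndufb9 read 6101, 7070.0, 5949 and 6083 on the siRNA arrays against 4746, 5073 and 4839 on the control arrays (0.36) and Ndufa12 4289, 4807, 3868 and 3915 on the siRNA arrays against 3006, 3358 and 3150.1 on the control arrays (0.41), both with an adjusted p of 0.087 in limma.

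Cytosolic ribosomal protein genes were not of like size with both siRNAs. Of 41, 0 met both conditions, although 39 lay above 0. The median was 0.46 with siRNA 3488 and 0.07 with siRNA 2600. The list's median of 0.27 was 0.0050 after quantile normalization. Rps15 read 18244, 22934, 13406 and 15564 on the siRNA arrays against 12197, 13660.1 and 13956 on the control arrays, so that siRNA 2600 replicate 1 lay within the control range. Rpl27a and Rpl30 overlapped as well, with changes for siRNA 3488 and siRNA 2600 of 0.56 and 0.14 for Rpl27a and 0.83 and 0.27 for Rpl30. Of 38 proteasome genes, 5 (13.2%) were higher and 1 (2.63%) lower with like size, against 6.39% and 6.33% of all genes. Under all 3 scalings the counts were 2 and 0. The 5 include the core subunit genes Psma7 (0.33) and Psmb3 (0.28). The higher count was 3 without siRNA 3488 replicate 1.

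Matrix genes were higher with like size about as often as genes at large (6.39%). Of 28 collagen and collagen-modifying genes 2 (7.14%) were higher, Col1a1 and Col1a2, the chains of type I collagen, and of 29 elastic fibre and glycoprotein genes 2 (6.9%), Eln and Fbln5. All 4 kept their side under all 3 scalings. The collagen count was 4 without control replicate 1 or 2 and 1 without siRNA 3488 replicate 1, and the other 4 without either siRNA 2600 array and 1 without siRNA 3488 replicate 2. Whatever their size, 5 of the 28 and 6 of the 29 were higher on one side (9.54% of all genes), and 0 and 1 lower. Above 0 lay 21 and 24, with medians of 0.12 and 0.19. After quantile normalization these medians were 0.03 and 0.09. Elastin, the core of elastic fibres, read 10164, 9762, 8342 and 8119.9 on the siRNA arrays against 6537, 6227 and 6584 on the control arrays (0.49, limma adjusted p = 0.0787). Its change was larger with siRNA 3488 by 0.28 (limma adjusted p = 0.037). A much dimmer elastin (Eln) probe set overlapped and had the opposite sign (-0.27). Fibulin-5, which assembles elastin on microfibrils, read 1976, 2366, 2467 and 2673 on the siRNA arrays against 1803, 1686 and 1929 on the control arrays (0.39), higher with siRNA 2600. Col1a1 read 3345, 3304, 2961 and 2972 on the siRNA arrays against 2358, 2277 and 2735 on the control arrays (0.36), and its second probe set was on one side at 0.31. Col1a2 was at 0.43, and its second probe set overlapped (0.27). The fibroblast marker list holds both collagen genes, and its summed signal is given above; its part in these values was not tested.

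Among 21 tested proteases and inhibitors, the list closest to the target, 3 (14.3%) were higher and 1 (4.76%) lower with like size. Over all genes 6.39% were higher and 6.33% lower. Under all 3 scalings the list gave 2 and 1, and 0 were called. Adamts4, a relative of Adamts16 that cuts aggrecan, read 576, 473, 504 and 501 on the siRNA arrays against 419, 402 and 401 on the control arrays (0.33, limma adjusted p = 0.146). Timp1, which inhibits metalloproteases, read 13868, 16960.4, 12008 and 13701 on the siRNA arrays against 9914, 10434 and 10851 on the control arrays (0.43). Plaur, the urokinase receptor gene, read 1115, 1082, 1106 and 1155 on the siRNA arrays against 1277, 1254 and 1304 on the control arrays (-0.20), and its dimmer probe set overlapped at 0.17. Adamts1 was at 0.07 as deposited and at -0.07 after quantile normalization. In the actin and contractile list 3 of 32 (9.38%) were higher with like size. Myh10, a nonmuscle myosin gene, was the member that held under all 3 scalings. The count was 6 without siRNA 2600 replicate 2 and 5 without siRNA 2600 replicate 1 or control replicate 2. Myh10 read 2263, 2211, 2349 and 2318 on the siRNA arrays against 1909, 1878 and 1817 on the control arrays (0.29, adjusted p = 0.0837).

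Lists of gene regulation held genes on both sides of the controls. Of 57 general transcription genes, 7 (12.3%) were higher and 2 (3.51%) lower with like size, and 7 and 1 under all 3 scalings. The like-size shares over all genes were 6.39% and 6.33%. Taf1 fell, while another TFIID subunit gene, Taf5, was at 0.25, the Mediator genes Med6 and Med24 at 0.43 and 0.36 and the polymerase subunit gene Polr2i at 0.21. The 7 became 3 without siRNA 2600 replicate 2 and 11 without siRNA 2600 replicate 1, and the 2 became 6 without that array and 4 without siRNA 3488 replicate 2. Of 70 splicing genes, 7 (10%) were higher and 6 (8.57%) lower, but 2 and 1 under all 3 scalings. The 7 became 11 without control replicate 2. Lsm2 rose. Pnisr, a nuclear speckle gene, read 1201, 1080.3, 1456 and 1185 on the siRNA arrays against 1786, 1579.9 and 1614 on the control arrays (-0.44), and its second probe set was lower on every siRNA array (-0.54). Srsf10 was at -0.27 with its other probe sets overlapping, Tra2a at -0.15 and Prpf4 at 0.16.

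Of 79 chromatin enzymes, 20 lay above 0, and the median was -0.09. With like size 1 was higher (1.27%, against 6.39% of all genes) and 6 lower (7.59%, against 6.33%), 1 and 3 under all 3 scalings. The lower share is thus near that of all genes. After median centring the list's median was -0.0016. Mysm1 fell. The H3K4 demethylase gene Kdm5c read 565, 537, 590.1 and 536 on the siRNA arrays against 709, 674 and 679 on the control arrays (-0.30), with a second probe set on the same side (-0.50) and another overlapping (-0.12). Jmjd1c, of the same demethylase superfamily, was at -0.26 and the remodeller gene Chd2 at -0.32. Without siRNA 2600 replicate 1 the lower count was 22 (27.8%, against 10.9% of all genes without that array). It was 10 without control replicate 1, and 4 without siRNA 2600 replicate 2 or siRNA 3488 replicate 2. Of 73 ubiquitin ligases and deubiquitinases, 2 were higher (2.74%) and 5 lower (6.85%), and 2 and 1 under all 3 scalings. The lower count was 9 without siRNA 2600 replicate 1 or control replicate 2, and the higher count 4 without siRNA 2600 replicate 1 or siRNA 3488 replicate 2. Cyld, a deubiquitinase that restrains NF-kB, read 511, 493, 506 and 511 on the siRNA arrays against 611, 595 and 591 on the control arrays (-0.24). Uchl5 was at 0.23, Vhl at 0.17, Wwp1 at -0.21 and the p53 inhibitor gene Mdm4 at -0.23.

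In endocytosis and vesicle traffic, 5 of 70 genes (7.14%) were higher and 5 (7.14%) lower, near the 6.39% and 6.33% of all genes. Under all 3 scalings the counts were 5 and 1. Scoc rose. Copg1, of the COPI coat that buds from the Golgi, read 5551, 6058, 5593 and 5487 on the siRNA arrays against 4764, 4770.2 and 4531 on the control arrays (0.27), and its other probe set overlapped (0.05). The higher count was 9 without siRNA 2600 replicate 1, 8 without siRNA 2600 replicate 2 and 3 without siRNA 3488 replicate 1, and the lower count was 8 without siRNA 2600 replicate 1 or control replicate 3. Rab21, an early endosome GTPase that handles integrins, read 2179.6, 2108, 2148 and 2191 on the siRNA arrays against 2656, 2610.1 and 2472 on the control arrays (-0.26). Ap2b1, of the clathrin adaptor AP-2, was at -0.30 with another probe set at -0.04, and the retromer gene Snx1 at -0.15. Rab21 held under all 3 scalings, and Ap2b1 and Snx1 did not.

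Vasoactive genes are of interest because the series concerns hypertension. Of 22 tested, 1 (4.55%) was higher and 5 (22.7%) lower with like size, against 6.39% and 6.33% of all genes. Under all 3 scalings the counts were 1 and 2, and 0 were called. Without siRNA 3488 replicate 1 the lower count was 3. The list's median was -0.03 as deposited and 0.060 after quantile normalization. Ptgs1, cyclooxygenase 1 of prostaglandin synthesis, read 480.1 and 498 for siRNA 3488, 508 and 518 for siRNA 2600, against 670.5, 636 and 633 for the scrambled siRNA. The arrays of each group lay close together and far from the other group (-0.37 ± 0.08, limma adjusted p = 0.0885). Gucy1b1, the beta subunit of the nitric oxide receptor, was the higher member at 132, 120.3, 146 and 136 on the siRNA arrays against 102, 89.5 and 72.7 on the control arrays. Its 2 probe sets gave 0.61 and 0.63, both without overlap and neither passing (adjusted p = 0.162 and 0.189). Ece1, which processes endothelin, read 624, 492, 601 and 625 on the siRNA arrays against 674, 717 and 862 on the control arrays (-0.36). The aminopeptidase gene Rnpep was at -0.12 and Sgk1, a kinase that raises sodium channel activity, at -0.16.

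Of 16 circadian genes, 2 lay above 0 and 6 were lower on one side (37.5%, against 8.74% of all genes). Of like size were 3 (18.8%, against 6.33%), with 1 holding under all 3 scalings. The lower count was 6 without siRNA 2600 replicate 1, and the list's median of -0.11 was -0.015 after median centring. That 1 gene was Hlf, a PAR-bZIP factor driven by the clock. It read 304 and 330.2 for siRNA 3488, 295 and 323 for siRNA 2600, against 466, 413 and 444 for the scrambled siRNA (-0.49 ± 0.10, limma adjusted p = 0.0832). A second Hlf probe set read 164, 129, 120.2 and 96.6 on the siRNA arrays against 238, 202 and 228 on the control arrays (-0.83), also without overlap, and the dimmest was at -0.29. Per2, a repressor of the clock loop, was at -0.24 and the kinase gene Csnk1e at -0.18.

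Signalling and defence lists held like-size genes on both sides, 5% to 5.56% of each list higher and 2.78% to 11.1% lower. Over all genes the shares were 6.39% and 6.33%. Leaving out 1 array gave shares over all genes of 6.93% to 9.8% higher and 6.57% to 10.9% lower. With 1 array left out, higher and lower counts ran from 1 to 4 and 1 to 3 (immediate early), 1 to 3 and 1 to 4 (TGF-beta), 0 to 5 and 2 to 4 (interferon) and 1 to 2 and 1 to 3 (RNA interference). The immediate early 4 and the interferon 5 came without siRNA 2600 replicate 1, and the interferon 0 without siRNA 2600 replicate 2. Of 36 immediate early genes 2 were higher and 1 lower. Rgs2, another regulator of G protein signalling, was at 0.33 and at -0.02 on its dimmer probe set, Ier3 at 0.25 and Errfi1, which restrains the EGF receptor, at -0.18. Of 37 TGF-beta, BMP and IGF genes 2 were higher and 2 lower and 0 held under all 3 scalings. The inhibitory Smad6 was at -0.36, the transducer Smad1 at -0.18, their target Id1 at 0.22 and follistatin (Fst) at 0.13 and, on another probe set, at -0.11. Double-stranded RNA can trigger interferon, and all groups received a duplex. The part of RNA sensing in these values was not tested. Of 40 interferon and RNA-sensing genes 2 were higher and 2 lower, with Stat2 at 0.30 (its dimmer probe set at -0.15), Isg15 at 0.38, the peptide transporter gene Tap2 at -0.47 and Gbp2 at -0.21. Of 18 RNA interference genes 1 was higher (Mov10, 0.30) and 2 lower (Tnrc6c, -0.22, and Pan3, -0.24).

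Metabolic and stress lists close the account. Of 29 glycolysis and hypoxia genes 6 (20.7%) were higher and 2 (6.9%) lower with like size, 4 and 1 under all 3 scalings. The like-size shares of all genes were 6.39% and 6.33%. Ldhb, a lactate dehydrogenase chain, read 517, 549, 493 and 473 on the siRNA arrays against 374, 377 and 368 on the control arrays (0.44 ± 0.09, limma adjusted p = 0.0832). Eno1 was at 0.24, Gpi at 0.14, Hk2 at 0.24 and Pfkfb3, which makes an activator of glycolysis, at -0.32. Of 39 NRF2 and glutathione genes 3 (7.69%) were higher and 2 (5.13%) lower. The peroxiredoxins Prdx6 and Prdx3 were at 0.28 and 0.13, Taldo1 at 0.10, glutathione reductase (Gsr) at -0.20 and Gstm4 at -0.16. Of 19 p53 targets 1 (5.26%) was higher (Ei24, 0.10) and 1 (5.26%) lower (Xpc, -0.14). Of 41 lysosome and autophagy genes 2 (4.88%) were higher and 1 (2.44%) lower. Those were Gusb (0.22), Becn1 (-0.14) and Lamp1, which was at 0.12 as deposited and at -0.0025 after quantile normalization. Of 12 heat shock genes 1 (8.33%) was higher, the Hspe1 given above. With 1 array left out, higher and lower counts ran from 5 to 8 and 1 to 2 for glycolysis, 3 to 6 and 1 to 4 for NRF2, 1 to 3 and 1 to 3 for p53, 2 to 4 and 1 to 4 for the lysosome and 0 to 3 and 0 to 1 for heat shock. Of 30 cholesterol and fatty acid genes 0 were of like size, but 3 were without siRNA 3488 replicate 1, 2 without siRNA 2600 replicate 1 and 1 without any other array. Srebf2, a master regulator of that pathway, was at 1.38 with siRNA 3488 and 0.21 with siRNA 2600, and Idi1 and Mvd, of the pathway's isoprenoid steps, at 0.16 and 0.85, and 0.14 and 0.75.

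Over all like-size probe sets the change was small, with a median size of 0.30 on the log2 scale. At least 1.5-fold changes were found for 211 and at least 2-fold for 19. On each array the 821 higher ones had a median of 0.24 and 0.31 (siRNA 3488) and 0.23 and 0.24 (siRNA 2600) above the control mean. The 1509 lower ones stood at -0.29 and -0.36, and -0.24 and -0.32. The selection itself asks for the same side and like size, so the shared direction of these medians was fixed in advance.

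Higher and lower members differ in brightness. The median control signal was 871 for the higher, 499 for the lower and 465 for all tested probe sets, and a gene name was given for 89.8%, 64.7% and 75.5% of them. Among 10 equal bins of tested probe sets by signal, the brightest held 204 higher and 67 lower ones, and the dimmest 29 and 93. The median change of all probe sets was 0.10 in the brightest bin and -0.11 and -0.08 in the 2 dimmest. The split of like-size probe sets was 821 to 1509 with the deposited scaling, 1032 to 1250 after quantile normalization and 1764 to 572 after median centring. Called probe sets split 19 to 8, 31 to 19 and 62 to 4. The direction of the whole set depends on the scaling. Named genes that met the stricter count were 868, of which 811 lie outside mitosis (533 higher and 281 lower, 3 of them in both directions).

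**Figure D5:**
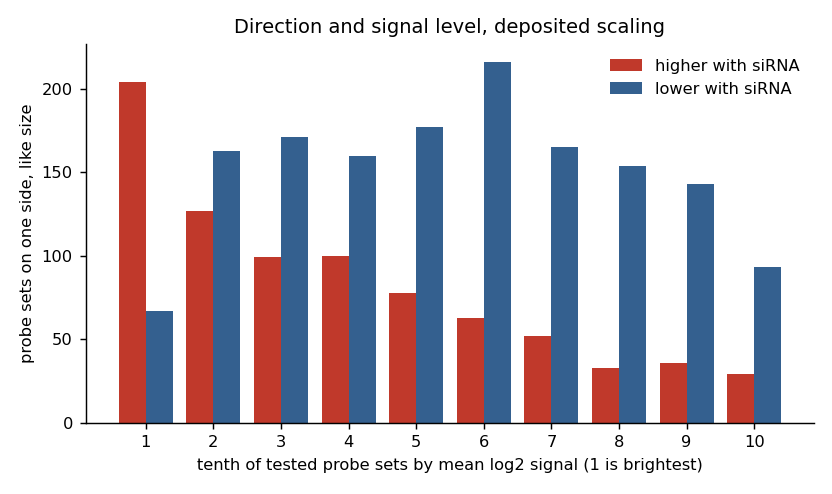
Number of probe sets on one side of the controls with like size (vertical), higher and lower with the siRNAs, in each of 10 equal bins of the 18625 tested probe sets by mean log2 signal, 1 being the brightest, with the deposited scaling. Higher ones number 204 in the brightest bin and 29 in the dimmest, and lower ones are the more frequent from the next bin on.

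Other probe sets annotated to the same genes were also read. A gene entered through any like-size probe set, and its widest-gap one was left out of the count. The others thus went through the same selection on the same arrays. The shares over all tested probe sets are therefore not a matched reference. For like-size higher genes outside mitosis, 32 of 313 other tested probe sets (10.2%) also lay higher on one side, against 6.66% of all tested. For like-size lower genes it was 123 of 796 (15.5%), against 11%. With a gap of at least 0.2 the shares were 6 of 17 (35.3%) and 37 of 146 (25.3%). For the mitosis list it was 9 of 15 (60%) for higher genes and 0 of 3 for the lower one, 9 of 18 (50%) in all. At most of their other probe sets, genes outside mitosis were not on the same side.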

How the data were processed

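The authors deposited linear intensity values for each probe set, from GCOS 1.4 according to the submitters' processing notes. How GCOS was set for background, summary and scaling is not given in the sources used here. Signals below 1 were set to 1 before log2. Of 31042 non-control probe sets, 20826 had 1 gene symbol in the platform annotation, 436 several and 9780 none. The upper 60% by mean log2 signal were fitted with limma 3.58.1 (R 4.3.3; empirical Bayes, prior following the mean signal) and Benjamini-Hochberg adjustment, with all 4 siRNA arrays against 3 controls. A 3-group fit gave changes per siRNA. The fits were tested on simulated data. Named were all called genes outside mitosis, the 12 genes each way with the widest gap, up to 5 like-size genes per list by gap (for lists with 0, up to 3 by change), and 1 gene on each side of the size limit. Lists use the brightest probe set per gene. Members, lists and rules were chosen with earlier results of these data known. Other scalings, filters, offsets, fits and leaving out each array were tried. The number of arrays limits the precision.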

Additional observations from a re-analysis of the deposited data

Results flagged for a closer look

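In 7 genes named here or looked up as markers the change differed between the siRNAs (limma, 3-group fit, adjusted over all probe sets tested). The same held for 1119 of all 18625 tested probe sets (6.01%), so such a difference is not particular to these genes. Relative to siRNA 2600, the change with siRNA 3488 was higher by 0.43 on the log2 scale for Cxcl13 (adjusted p = 0.036), by 1.17 for Srebf2 (0.0315), by 0.28 for Eln (0.037) and by 0.50 for Rps15 (0.0364). The difference was -1.39 for Mef2d (0.0415) and -0.69 for Idi1 (0.0449). Cd68, a macrophage marker with signals of 365, 363, 192 and 225 on the siRNA arrays against 208, 236 and 246 on the control arrays, differed by 0.81 (0.021). Of these genes Cxcl13, Eln and Mef2d lay on one side of the controls with both siRNAs, and the others overlapped.

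The hybridisation spikes, which no comparison uses, were higher with siRNA 3488 than with the control by a median log2 of 0.52, and by 0.031 with siRNA 2600. Their part in the results was not tested.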

How the results depend on the processing

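The 27 called probe sets were 50 after quantile normalization, 66 after median centring, 0 with no signal filter (3929 at an unadjusted limma p under 0.05), 0 without the intensity trend (2995), 1378 for the mean effect of a 3-group fit, and 0 to 1316 when 1 array was left out. With a replicate block 0 were called (2107 at an unadjusted limma p under 0.05). Deviations of arrays with the same replicate number correlated at -0.05 to 0.16. Arrays with different numbers were not compared, so these values cannot decide whether the replicate numbers pair the arrays. The 2330 like-size probe sets were 1505 with a size ratio of at least 2 to 3, 1215 under all 3 scalings together, an alternative chosen after seeing the data, and 2555 to 3928 with 1 array left out. The 1119 that differed between the siRNAs were 574 after quantile normalization, 727 after median centring and 103 to 1564 with 1 array left out. An offset of 32, the upper 40% and 1 probe set per gene kept the call count within 1.5 times. The change of Adamts16 lay between -0.31 and 1.05 with 1 array left out and was below 0 without siRNA 3488 replicate 2 (-0.31), siRNA 2600 replicate 1 (-0.00066) or control replicate 2 (-0.024). Signs turned after quantile normalization for Slc38a2 (-0.013), Adamts1 (-0.072) and Lamp1 (-0.0025), after median centring for Tjp1 (0.015) and Tek (0.0057). With 1 array left out Tek lay between -0.16 and 0.037 and Esam between -0.31 and 0.038. The causes were not tested. Of the 10 called named genes, 10 lost the call without either siRNA 3488 array or any control array, 9 without siRNA 2600 replicate 2 and 4 after median centring. Of 34 list medians, 31 moved with median centring and 18 with quantile normalization.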
